A study of Drosophila melanogaster with 6 samples.

Results

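DamID peaks of Klumpfuss (Klu), a WT1-related transcription factor with zinc fingers, were examined at 6 genes of cell shape, contractility and matrix contact in the Drosophila midgut: Rok, Tm1, Tm2, Dg, raw and neo. The peaks described are those whose listed gene symbol exactly matched 1 of these 6 names in the deposited peak tables. Matching was by symbol because Tm1 and Tm2 were listed under the same identifier. Each gene had 1 peak, so 6 of the 1122 distinct peaks of the main set, named coherent, are described, under 6 of its 1678 listed gene symbols. A wider set, named semicoherent, had 1250 peaks, and each gene again had 1. The genes were chosen because they were already known to be listed with a peak, so their presence in the tables is no result.

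In DamID, a bacterial adenine methylase (Dam) fused to a DNA-binding protein marks GATC sites near the places where that protein sits, and the marked fragments are cut, amplified and sequenced. The Klu-Dam flies were described as carrying esgts, UAS-Flp and UAS-Klu Dam, and the Dam-only flies as carrying esgts, UAS-Flp and the UAS-Dam control. Both were reared at 18 °C and shifted for 24 h to turn on Flp and Dam, with 3 replicates of 30 to 40 midguts each, and the sets of replicates were collected on different dates. The esg-Gal4 driver is active in intestinal stem cells and their progenitor daughters, where Flp removes a stop cassette in front of Dam, while the DNA was taken from whole guts. In the vector that the paper names, Dam stands behind a minimal heat-shock promoter and this cassette, so there Flp and not Dam is under UAS control. Ages and sexes of the flies were not given in the labels. DamID reads DNA and not RNA, so the labelled cell type could not be checked against expression markers. The counts used are those of the 3 Klu-Dam libraries. No Dam-only count was used, so none of the values below has the signal of free methylase beside it, and whether a peak exceeds that signal rests on the authors' peak calls.

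The 6 genes act at different levels of epithelial shape. Rok is a kinase that raises myosin II contractility. Tm1 and Tm2 encode tropomyosins, coiled-coil proteins that lie along actin filaments and control the access of myosin and of severing factors. Dg encodes Dystroglycan, a transmembrane receptor that ties the cytoskeleton to laminin and perlecan in the basement membrane. The gene raw is known from embryonic dorsal closure, where it restrains Jun kinase (JNK) signalling. The gene neo (neyo) encodes a transmembrane protein with a zona pellucida domain, of a family that organises the apical extracellular matrix over embryonic epidermal cells. WT1 and the related EGR factors bind GC-rich DNA through zinc fingers, and GCGTGGG and GCGGGGG are core letters of such sites. These letters were searched in the peaks. The paper calls the sequence similarity of Klu and WT1 limited, and it scanned its peaks with published binding matrices for Klu itself. Those matrices were not used here, so presence or absence of these letters does not decide whether a peak holds a Klu site.

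The matches are shown first because they are the only sequence the peaks were searched for beyond the GATC sites of the method. All sequences are from the Release 6 (dm6) reference and run 5′ to 3′ on the strand of the gene. Capitals mark the match, and CCCACGC is GCGTGGG read on the other strand. The Tm1 match lay in a coding exon (chr3R:15288910-15288944, plus strand), the Tm2 match in an intron (chr3R:15314307-15314341, plus strand), and the neo matches just past the end of the gene (chr3R:29825792-29825826 and chr3R:29826047-29826081, plus strand). In raw, 1 GCGTGGG and 2 GCGGGGG matches fell within 70 bases of a coding exon (chr2L:8734512-8734581, minus strand), and another GCGTGGG lay in an intron (chr2L:8735995-8736029, minus strand).
Tm1: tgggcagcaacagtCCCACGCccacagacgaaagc
Tm2: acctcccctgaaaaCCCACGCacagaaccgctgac
neo, first: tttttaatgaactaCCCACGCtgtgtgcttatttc
neo, second: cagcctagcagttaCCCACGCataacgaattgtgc
raw, cluster: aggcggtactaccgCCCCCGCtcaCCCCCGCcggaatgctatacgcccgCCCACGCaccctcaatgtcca
raw, intron: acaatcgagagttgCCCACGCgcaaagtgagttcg

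GCGTGGG, searched on both strands, was in 5 of the 6 peaks, the exception being Rok, and in 219 of all 1122 coherent peaks (19.5%). How often such letters turn up depends on the length of the window. When the 6 chromosome arms were divided into pieces of the length of each peak, 38.4% of pieces as long as the Tm1 peak held GCGTGGG, 25.6% for Dg, 21.1% for raw, 12.3% for neo, 11.1% for Rok and 4.96% for Tm2. Tm2, the shortest peak, had the lowest of these shares and still held a match. GCGGGGG was in the raw peak alone among the 6 and in 128 coherent peaks (11.4%). It was in 18.1% of pieces as long as the raw peak and in 10.5% of pieces as long as the neo peak. The neo peak, at 1697 bp, was near the median width of the coherent peaks, 1697.5 bp. No 2 matches in these peaks overlapped each other. None of the matches was in the 300 bases around the midpoint of its peak, where 28 of the 1122 peaks (2.50%) held GCGTGGG and 19 (1.69%) held GCGGGGG. The nearest, in Tm2, was 178 bp from the midpoint, and the match in Tm1 was 1572 bp from it.

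All 7 GCGTGGG and 2 GCGGGGG matches in these peaks had their G-rich strand opposite to the coding strand of the gene, which is why capitals read CCCACGC above. Over the 91 coherent peaks that held GCGTGGG, overlapped their gene and were listed with 1 gene only, 60 of 112 matches (53.6%) were opposite. A match is a run of letters and not a mapped site, and DamID marks GATC sites that can lie at some distance from the protein.

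The levels of the 6 peaks ranged from rank 2 to rank 848 of the 1122 coherent peaks. Reads in the coherent peaks summed to 19521921, 18287201 and 18347327 in Klu-Dam replicates 1, 2 and 3, with a median of 2783.5, 2956.5 and 3026.5 reads per peak. Levels are given as CPM, the reads of a peak divided by all reads in coherent peaks and multiplied by 1e6, with the mean ± SD of the 3 Klu-Dam libraries, and a rank of 1 marks the highest of the 1122 peaks. These are amplified reads without molecular identifiers.

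The neo peak was the second highest of all. It lay at chr3R:29824714-29826410 (1697 bp) and held 756294, 581305 and 330982 reads, or 38741, 31788 and 18040 CPM in Klu-Dam replicates 1, 2 and 3 (29523 ± 10535, SD, n = 3). Replicate 3 was the low library. The peak ranked 2, 2 and 8 in the 3 libraries. Per kb of peak it was the highest of the whole set, at 17397 ± 6208 CPM per kb (SD, n = 3). This 1 peak took 3.87%, 3.18% and 1.80% of all reads in coherent peaks.

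The raw peak was also among the highest, with a rank of 18. It lay at chr2L:8733782-8736880 (3099 bp) and held 211282, 158474 and 296180 reads, or 10823, 8666 and 16143 CPM (11877 ± 3848, SD, n = 3). Here replicate 3 was the high library, opposite to neo. The peak took 1.08%, 0.867% and 1.61% of reads in coherent peaks. The other 4 peaks combined took 0.166%, 0.159% and 0.120%.

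The Dg and Tm1 peaks were in the upper part of the set. The Dg peak, at chr2R:16084661-16088534 (3874 bp), held 19326, 17762 and 12638 reads, or 990, 971 and 689 CPM (883 ± 169, SD, n = 3), and ranked 195. The Tm1 peak, at chr3R:15287297-15293700, held 9447, 7573 and 5988 reads, or 484, 414 and 326 CPM (408 ± 78.9, SD, n = 3), and ranked 317. In both, replicate 3 was lowest. At 6404 bp the Tm1 peak was the widest of all 1122, against a median width of 1697.5 bp, so its level per kb was low, at 63.7 ± 12.3 CPM per kb (SD, n = 3), with a rank of 713.

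Rok and Tm2 had the lowest peaks of the 6. The Rok peak, at chrX:16626142-16627669 (1528 bp), held 2253, 2408 and 2408 reads, or 115, 132 and 131 CPM (126 ± 9.27, SD, n = 3). It ranked 631, below the median coherent peak of 155 CPM. The Tm2 peak, at chr3R:15314173-15314830 and only 658 bp wide, held 1324, 1411 and 1035 reads, or 67.8, 77.2 and 56.4 CPM (67.1 ± 10.4, SD, n = 3), and ranked 848. For their width neither was far from the typical peak. Rok had 82.5 ± 6.07 and Tm2 102 ± 15.8 CPM per kb (SD, n = 3), where the median peak had 97.6.

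**Figure D1:**
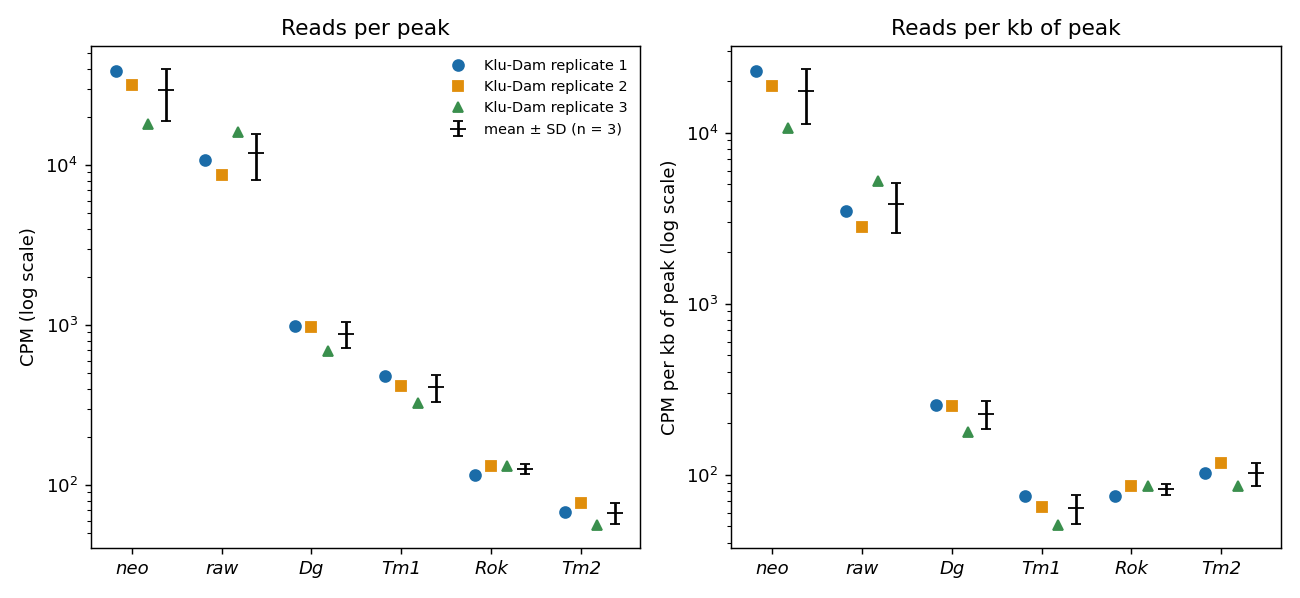
CPM of each peak (left) and the same per kb of peak (right), both on log axes, for the 6 peaks in the 3 Klu-Dam libraries (points) with mean ± SD (bars, n = 3). On the left the 6 peaks step down with no overlap between neighbours, while on the right Tm1, Rok and Tm2 lie in 1 range between 51.0 and 117 CPM per kb.

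By mean CPM the order was neo, raw, Dg, Tm1, Rok, Tm2. No 2 neighbours in that order overlapped between libraries. The closest approach was between neo, with a lowest value of 18040 CPM, and raw, with a highest value of 16143 CPM, both in replicate 3. The ratio of means between neighbours was 2.49 for neo over raw, 13.4 for raw over Dg, 2.16 for Dg over Tm1, 3.24 for Tm1 over Rok and 1.88 for Rok over Tm2. By CPM per kb the order was neo, raw, Dg, Tm2, Rok, Tm1. Dg had 256, 251 and 178 CPM per kb and stayed above the other 3. Tm2 (103, 117 and 85.7 CPM per kb), Rok (75.5, 86.2 and 85.9) and Tm1 (75.6, 64.7 and 51.0) were close. Tm2 overlapped Rok and Rok overlapped Tm1, while Tm2 stayed above Tm1, with a lowest value of 85.7 against a highest of 75.6 CPM per kb. The genes were chosen on these tables, so the order is a description and no test was run.

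**Figure D2:**
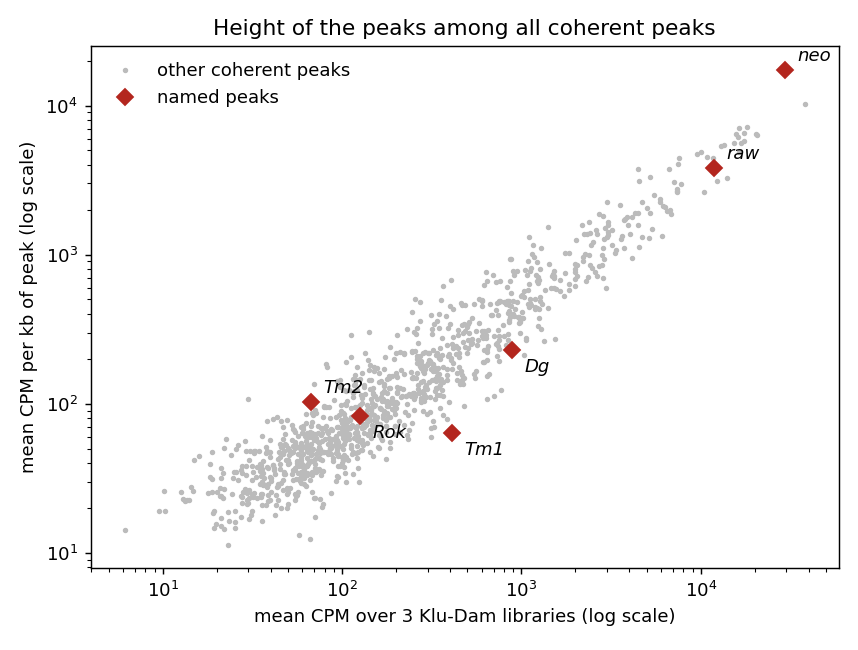
Mean CPM over the 3 Klu-Dam libraries (x axis) and mean CPM per kb of peak (y axis), both log scales, for all 1122 coherent peaks, with the 6 named peaks as diamonds. The neo and raw peaks sit in the sparse upper end, Dg, Rok and Tm2 in the main cloud, and Tm1, with its width of 6404 bp, at the lower edge.

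The tropomyosin genes are neighbours on 3R, both on the plus strand, with 1413 bp between them. Their peaks were 20472 bp apart and separate in the tables. The Tm1 peak held 7.14, 5.37 and 5.79 times the reads of the Tm2 peak in replicates 1, 2 and 3. Per kb the ratio of Tm1 to Tm2 was 0.733, 0.551 and 0.594, so the direction turned in each library once width was taken into account. Both peaks were listed under the identifier FBgn0004117, which the reference gives to Tm2, while it gives FBgn0003721 to Tm1. The listed start of the Tm1 gene, 15281370, also differed from the reference start, 15278220. The peaks are kept apart here by symbol and position. Of 1667 identifiers in the coherent table, 11 stood under more than 1 symbol.

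The spread between libraries differed among the 6 peaks. The coefficient of variation over the 3 Klu-Dam libraries was 35.7% for neo, 32.4% for raw, 19.3% for Tm1, 19.1% for Dg, 15.5% for Tm2 and 7.35% for Rok, and its median over all peaks was 16.7%. The log2 ratio of CPM in replicate 2 over replicate 1 lay between -0.32 for raw and 0.19 for Rok and Tm2, where the median of all peaks was 0.15 and the 5th and 95th percentiles were -0.24 and 0.60. Both raw, with 29 of the 1122 peaks lower, and neo, at -0.29 with 38 lower, were under the 5th percentile. For replicate 3 over replicate 1 this ratio was -1.10 for neo, -0.57 for Tm1, -0.52 for Dg, -0.27 for Tm2, 0.19 for Rok and 0.58 for raw, where the median of all peaks was 0.11 and the 5th and 95th percentiles were -0.74 and 1.27. Only 11 of the 1122 peaks (0.980%) had a lower ratio than neo. The ratio of raw to neo reads was 0.279 and 0.273 in replicates 1 and 2 and 0.895 in replicate 3. Replicate and collection date cannot be told apart.

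**Figure D3:**
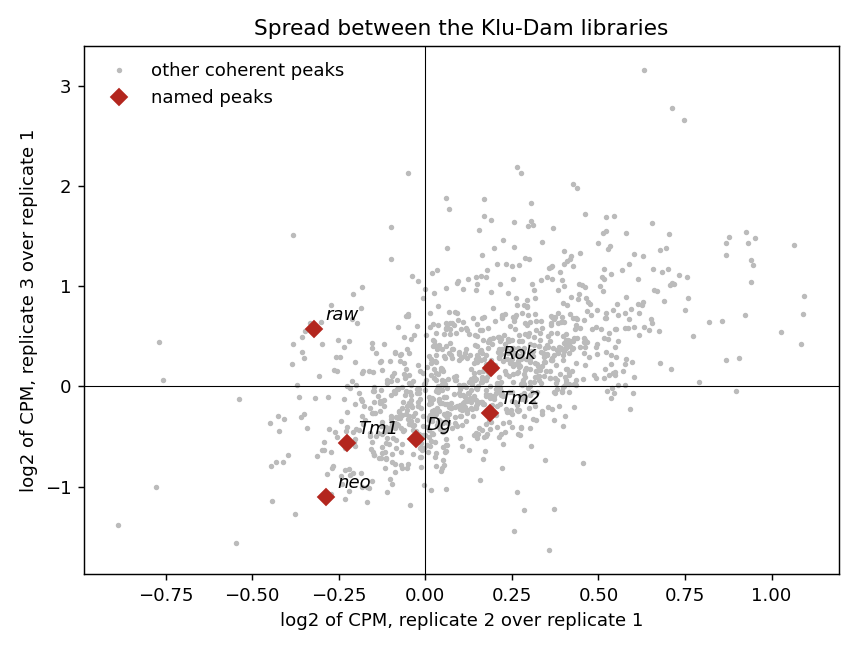
Log2 ratio of CPM in Klu-Dam replicate 2 over replicate 1 (x axis) and in replicate 3 over replicate 1 (y axis) for all 1122 coherent peaks, with the 6 named peaks as diamonds. The neo peak lies near the bottom at -1.10 on the y axis, whereas raw lies at 0.58 on that axis with a negative value on the x axis.

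All 6 peaks overlapped their gene, at a listed distance of 0 bp, and no peak was listed with a second gene. Of all 1122 coherent peaks, 497 (44.3%) were listed with more than 1 gene. Their place within the gene varied. Positions are from the Ensembl annotation of Release 6, and the feature given is that at the midpoint of the peak. It was an intron in Tm1, Tm2 and Dg, a coding exon in Rok, the 5′ UTR in raw and the 3′ UTR in neo. Transcript starts lay inside the peaks of Tm1 and raw only. Of the 6 genes, 4 were 10 kb or longer. So were 1977 of 13945 protein-coding genes (14.2%), and 406 of the 1549 listed near a coherent peak.

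Dg (FBgn0034072, 2R:16081176-16098564, minus strand, 17389 bp) has 1 transcript start, and the nearest edge of its peak was 10030 bp away from it. The peak covered 22.3% of the gene in its second part, with the midpoint at 68.8% of the gene length. Of its bases, 51.8% were coding and 48.2% intronic. The GCGTGGG in this peak was in a coding exon, 752 bp from the midpoint.

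Rok (FBgn0026181, X:16624012-16637414, minus strand, 13403 bp) was likewise marked far from a start. The nearest edge was 7998 bp from one, and the midpoint lay at 78.4% of the gene. The peak ran over 875 bp of coding exon (57.3%), 632 bp of intron (41.4%) and 21 bp of 3′ UTR.

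Tm2 (FBgn0004117, 3R:15310193-15315197, plus strand, 5005 bp) and neo (FBgn0039704, 3R:29819131-29825800, plus strand, 6670 bp) were marked at their 3′ ends. The Tm2 peak lay with its midpoint at 86.1% of the gene, and 3 of the 6 Tm2 transcripts ended in it. It was 54.0% intron, 33.9% 3′ UTR and 12.2% coding. In neo the midpoint was at 96.4%, both transcripts ended in the peak, and 610 bp of the peak (35.9%) were past the end of the gene. The rest was 33.6% 3′ UTR, 18.3% coding and 12.1% intron. The next gene, Atg16, began 871 bp past the neo peak and was not listed with it. Both GCGTGGG matches of this peak were in the part outside neo.

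The raw peak held an internal transcript start. The gene raw (FBgn0003209, 2L:8709880-8740660, minus strand, 30781 bp) has 5 transcripts, and raw-RA and raw-RE start inside the peak, at 8735797, 466 bp from the midpoint. By bases the peak was 57.1% intron, 24.2% 5′ UTR and 18.7% coding, and it covered 10.1% of the gene. The sequence of this start is shown because it lies within the second highest peak of the 6, with 120 bases before it, the first transcribed base in capitals and 19 further bases (chr2L:8735778-8735917, minus strand, Release 6). The sequence held neither motif.
raw-RA start: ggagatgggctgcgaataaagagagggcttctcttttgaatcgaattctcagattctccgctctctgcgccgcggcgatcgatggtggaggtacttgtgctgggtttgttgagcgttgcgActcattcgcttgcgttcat

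Tm1 (FBgn0003721, 3R:15278220-15308779, plus strand, 30560 bp) has 18 transcripts with 8 starts. Of these, 5 transcripts began inside the peak at 3 positions, with Tm1-RC and Tm1-RI at 15288012, Tm1-RA at 15290944 and Tm1-RQ and Tm1-RR at 15290946. The midpoint, at 40.2% of the gene, was 445 bp before a start. The peak was 60.8% intron, 26.5% coding and 12.6% 5′ UTR. It also spanned CG45218, a gene nested in Tm1 on the minus strand (3R:15290309-15290799), in which the midpoint fell and with which the peak was not listed. The starts are shown because Tm1 is a gene whose isoforms differ by start, each with 120 bases before it and the first transcribed base in capitals (chr3R:15287892-15288031 and chr3R:15290824-15290963, plus strand, Release 6).
Tm1-RC start: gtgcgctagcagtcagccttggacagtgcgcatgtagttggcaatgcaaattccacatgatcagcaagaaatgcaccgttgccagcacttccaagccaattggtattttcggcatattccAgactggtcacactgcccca
Tm1-RA start: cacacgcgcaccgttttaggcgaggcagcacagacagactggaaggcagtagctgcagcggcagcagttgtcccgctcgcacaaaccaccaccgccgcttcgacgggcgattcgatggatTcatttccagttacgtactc

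**Figure D4:**
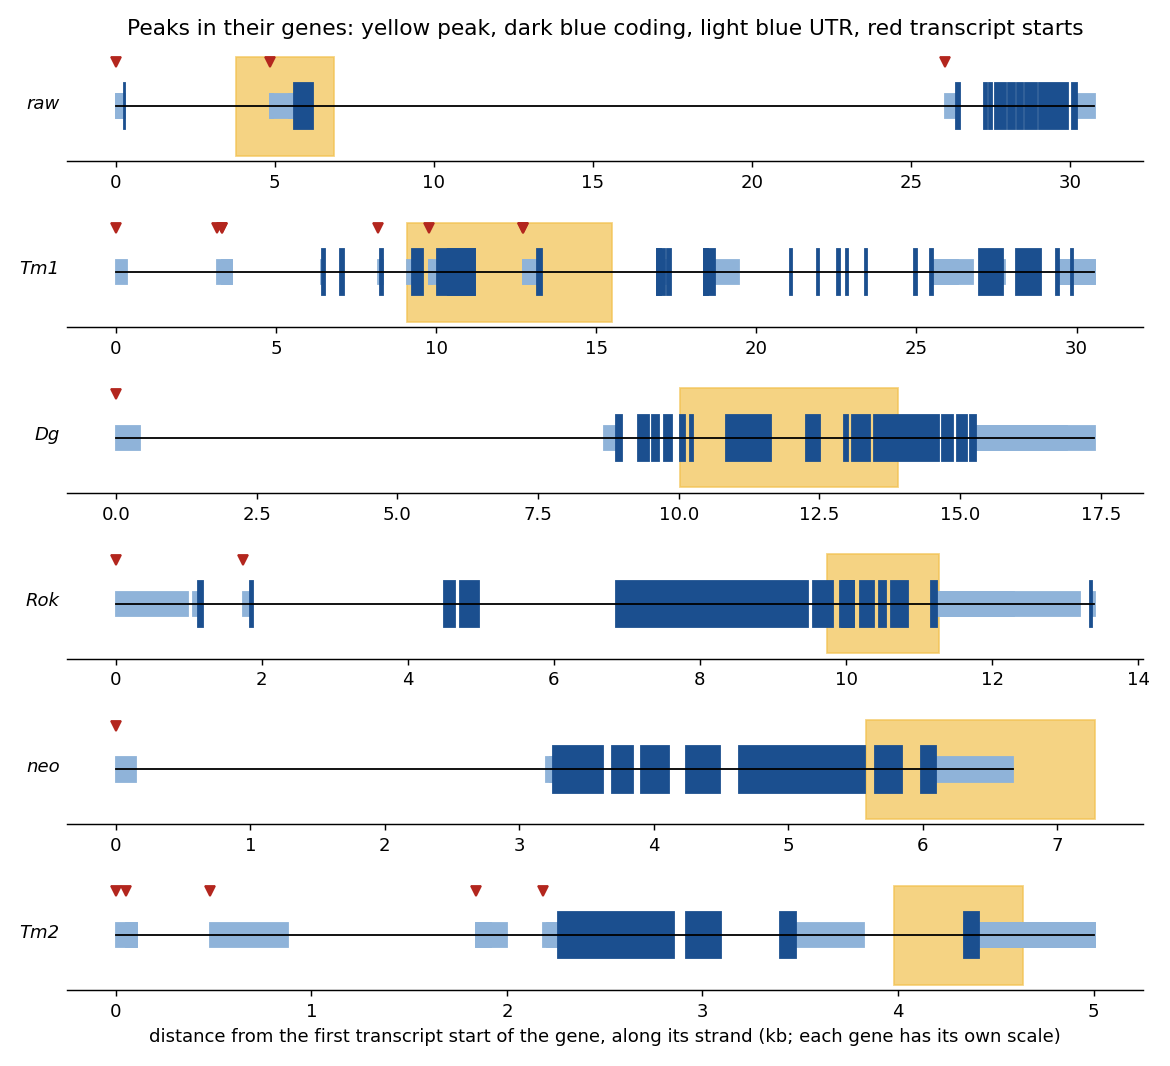
Peaks (yellow) drawn over the exons of each gene (dark blue coding, light blue UTR) with transcript starts as red triangles, along the strand of the gene in kb from its first start, each gene on its own scale. The peaks of Dg, Rok, neo and Tm2 lie in the second part of the gene, away from any start, while those of raw and Tm1 hold starts.

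Peak edges are set by GATC sites, since the fragments between such sites are what DamID measures. The neo peak began and ended at such sites, given here with GATC in capitals on the plus strand (chr3R:29824699-29824728 and chr3R:29826396-29826425, Release 6).
neo, first edge: aggtaagatcacaGATCatctgatggtctt
neo, last edge: acacctgtacgaaGATCcatccagcagctg
The neo peak consisted of 7 GATC fragments with a median of 195 bp, near the median over coherent peaks of 6 fragments and 197 bp. The Tm1 peak had 5 fragments with a median of 655 bp, of which the longest was 4345 bp, so most of the widest peak rested on 1 fragment. The raw peak had 9 fragments with a median of 354 bp, Dg had 9 with 203 bp, Rok had 6 with 144 bp, and Tm2 had 4 with 94.5 bp. The longest fragment also made up most of the Dg peak (2378 of 3874 bp), the Rok peak (889 of 1528 bp) and the Tm2 peak (381 of 658 bp).

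Base composition also varied. GC content was 52.9% in the Rok peak and 39.5% in the raw peak, between 44.4% and 47.1% in the other 4 peaks, and 45.4% in the median coherent peak. Repeat-masked bases made up 19.9% of the raw peak, 18.4% of Tm1 and 7.48% of neo, against a median of 10.4%. The part of these properties in the read levels was not tested. The nearest other coherent peak was 128627 bp away from raw and between 18266 and 35095 bp from each of the other peaks.

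The semicoherent table gave the same sites with small changes. The neo peak began 207 bp earlier there as listed (209 bp between the GATC sites), with 3 further GATC fragments that added 18, 19 and 18 reads in replicates 1, 2 and 3. The Dg peak began 81 bp earlier as listed (83 bp between the GATC sites), with 1 further fragment, and gained 0, 1 and 3 reads. Counts of the other 4 peaks differed by 1 read at most.

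The peaks of other genes closest in level show what the 6 values look like elsewhere in the set. Likeness was the largest absolute difference in log2 CPM over the 3 Klu-Dam libraries, the smaller the closer. Rok was nearest to the peak of CG11149 (0.05), Tm1 to CG6475 (0.10), Tm2 to rdx (0.02), Dg to Gr59f (0.11) and raw to loco (0.18). The neo peak had no close match, and the nearest was CG2022 (0.44), the only peak with a higher mean. CG2022 held 48551, 43243 and 21835 CPM in replicates 1, 2 and 3. Because likeness was taken over the level in each library, a like pattern between libraries is in part built into the choice.

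Other genes of the same processes were looked up in 6 lists written with results of these tables in view. The lists held 105 genes, of which 104 were found in the reference. Beside the 6 genes above, 21 of 98 (21.4%) were listed near a coherent peak, at a listed distance of at most 2 kb. Genes close to a peak were not always listed with it, as Atg16 and CG45218 above show. The shares here therefore count the authors' listing. Over all 13945 protein-coding genes 11.1% were so listed, and over the 1977 of 10 kb or longer 20.5%. Long genes give more room for a peak, and 54 of the 98 were at least 10 kb long, of which 15 were listed. The counts are given without a test.

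The list of dystroglycan, integrin and basement membrane genes, around Dg, had the highest share, with 8 of 21 others (38.1%). Of the 21, 9 were at least 10 kb long, 5 of them listed. The peak of mew, an integrin alpha subunit, held 4652, 3636 and 5896 CPM in replicates 1, 2 and 3 and ranked 46, above Dg itself. Of 2 peaks of trol, which encodes the perlecan of the basement membrane to which Dystroglycan binds, the higher had 1145 ± 264 CPM (SD, n = 3). The peak of rhea, the fly talin that links integrins to actin, had 742 ± 33.4 CPM, and that of wb, a laminin alpha chain, had 532 ± 82.8 CPM (SD, n = 3 each). Dys, the cytoplasmic partner of Dystroglycan, had 2 peaks with 121 ± 17.8 and 85.2 ± 11.3 CPM. Scgbeta, mys and Ilk were the others, between 36.1 and 323 CPM. Genes for the collagen IV chains (Col4a1, vkg) and for LanA, LanB1 and LanB2 were not listed near a coherent peak.

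The list of JNK signalling and dorsal closure, around raw, had 4 of 12 others (33.3%): puc, the phosphatase that dampens JNK, kay, the fly Fos, msn, an upstream kinase, and aop, an ETS repressor. Of the 12, 8 were at least 10 kb long, and all 4 listed genes were among these. aop had the highest peak, with 1188 ± 171 CPM, and the higher of the 2 puc peaks had 176 ± 21.0 CPM (SD, n = 3 each). The 2 kay peaks held 75.2, 57.7 and 215 CPM and 32.1, 41.9 and 42.2 CPM in replicates 1, 2 and 3. bsk, the JNK itself, was not listed near a coherent peak, nor was hep, its kinase, although a coherent peak of 43.0 ± 7.37 CPM (SD, n = 3), listed with rad, overlapped hep in the reference annotation.

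The lists of contractility, actin filament and zona pellucida genes were nearer to the 11.1% of all protein-coding genes. Among myosin II contractility genes, around Rok, 2 of 15 others (13.3%) had a peak: sqh, the myosin regulatory light chain, with 602 ± 30.3 CPM, and Mbs, the targeting subunit of the phosphatase that opposes Rok on that light chain, with 733 ± 84.8 CPM in the higher of its 2 peaks (SD, n = 3 each). Both were higher than the Rok peak in 3 of 3 libraries. Among tropomyosin and actin filament genes, 2 of 20 others were listed near one: chic, the profilin, with 94.5 ± 20.1 CPM, and Actn, the alpha-actinin, with 104 ± 40.8 CPM in the higher of 2 peaks. Arp3, a subunit of the complex that nucleates branched actin, was not listed near a coherent peak and is not in that count. In the reference annotation, however, a coherent peak listed with CG7927 overlapped it. This peak held 18619, 17946 and 24080 CPM in replicates 1, 2 and 3 (20215 ± 3364, SD, n = 3) and ranked 4. In the zona pellucida domain list, around neo, nyo alone of 11 others (9.09%) was listed, with 70.1 ± 25.0 CPM (SD, n = 3). Among junction and polarity genes, 4 of 19 (21.1%) were listed: cno, pyd, sdt and par-6. This was near the 20.5% of genes of 10 kb or longer, and 14 of the 19 were that long, 3 of them listed. pyd, the fly ZO-1, had 299, 357 and 932 CPM in replicates 1, 2 and 3 in its higher peak.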

How the data were processed

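DNA of midguts with Klu-Dam or Dam alone in Esg-positive cells was measured in 3 libraries each. The authors aligned reads to dm6, took ratios of Klu-Dam over Dam-only on GATC fragments, called peaks and attached nearby genes with a script of their own. Listed distances were at most 2 kb. The submitters' processing notes also name HOMER. The deposited tables held, for each peak, raw counts of reads in the Klu-Dam libraries and another measure, the distance to the gene in bp, as the authors computed it. How the names coherent and semicoherent relate to replicates is not stated in the sources used here. The coherent set held 1667 gene identifiers, the same number as the genes that the paper reports near a reproducible peak. 0 columns of sample values were left out.

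Repeated entries were reduced to distinct peaks. Counts were divided by the sum over coherent peaks and given as CPM. Positions are 1-based. Genes came from Ensembl annotation and sequences from the RefSeq copy of the Release 6 genome, on which the edges of the 6 peaks fell on GATC sites. Motif matches were counted on both strands. Python 3.11.15, numpy 2.4.6 and pandas 2.3.3 were used, and the scripts were tested on simulated data. No p-value was computed, since members and lists were chosen with earlier results of these data known. Genes named were the 6 members, listed genes near a coherent peak, and for each member the peak nearest in log2 CPM. List genes without a listed peak, and the gene nested in or next to a member, were named after the tables were seen. Alternatives were other scalings, the semicoherent set, a minimum of 1000 reads, width, and leaving out each replicate.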

Additional observations from a re-analysis of the deposited data

How the results depend on the processing

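Levels and ranks were recomputed under the other scalings, with the semicoherent set and without each replicate, ranks also among the 861 peaks with at least 1000 reads in each library, and the order without each replicate and per kb. With the library totals of the study as denominator, means became 69.0 CPM for Rok, 224 for Tm1, 36.8 for Tm2, 485 for Dg, 6490 for raw and 16243 for neo, since the denominator is larger by construction. In the semicoherent set, where more reads enter the denominator, the means of all 6 peaks were lower. Rok was at 117 CPM there against 126 in the coherent set, and neo at 27391 against 29523. The neo peak ranked 3 in the semicoherent set and 2 in the coherent set. Per kb of peak, 3 and not 5 of the neighbouring pairs were apart in all libraries, and ranks became 614 for Rok, 713 for Tm1, 550 for Tm2 and 315 for Dg, because widths differ. Counting any base of the peak in place of its midpoint, 6 and not 3 peaks touched an intron. With a window of 300 bases, 0 and not 5 peaks held GCGTGGG. The direction of both changes was set by construction but their size was not, so the motif count depends on the window. Without each replicate in turn, neo ranged from 24914 to 35264 CPM and raw from 9744 to 13483 CPM. No paired analysis was possible because no Dam-only count was used and the 3 Klu-Dam libraries are 1 group. With 3 libraries of 1 condition, the values cover the spread between libraries and not the background of Dam alone.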
